A study of Mus musculus with 10 samples.

Results

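Transcription factors that mark or direct the somatic cells of the mouse ovary were followed across ovaries in which a Cre recombinase targets retinoic acid receptor genes and control ovaries. The 9 genes Foxl2, Nr0b1, Wt1, Gata4, Gata6, Nr2f2, Runx1, Irx3 and Irx5 were taken by symbol from the deposited tables, which hold 24306 genes, and each matched 1 row. All 9 passed the filter on low counts in every fit. PolyA RNA was sequenced from whole gonads of mice 6 weeks old on a mixed C57BL/6 and 129 background. The Rar mutants (n = 3) were Rara f/f, Rarb f/f and Rarg f/f with Sf1-Cre+, and Dmrt1 +/+. The Dmrt1 het Rar mutants (n = 2) carried the same receptor alleles and Sf1-Cre+ and were Dmrt1 fl/+, with 1 floxed allele of a gene that directs testis fate. The controls (n = 5) were Dmrt1 +/+, carried the same 3 pairs of floxed receptor alleles and were Sf1-Cre-. Floxed receptor genes were therefore common to all groups. Sf1-Cre is driven by the promoter of Nr5a1, the gene of the nuclear receptor SF-1, which somatic gonad cells use, so the oocytes are not its target. The design text speaks of 5 replicates in each of 2 genotypes, so both kinds of Cre-positive ovary were also pooled as Rar-deleted ovaries (n = 5).

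Follicles of the ovary are built from granulosa cells around the oocyte and from theca cells in the surrounding stroma, and the ovary is covered by a surface epithelium. Each of these somatic types is kept in its state by a small group of DNA-binding proteins. FOXL2 holds granulosa cells in the ovarian fate, RUNX1 acts with it in the fetal ovary, and NR0B1 (DAX1) represses transcription driven by SF-1. WT1 and GATA4 are needed for formation of the gonad, and GATA4 and GATA6 together for follicle growth. NR2F2 (COUP-TFII) marks stromal and theca cells, and IRX3 and IRX5 are homeodomain proteins of the developing follicle.

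The promoter of Nr0b1 is shown because Nr0b1 was the member that was lower in every Rar-deleted ovary by the largest fold. The stretch is the 250 bases before the start of the gene in RefSeq, at chrX:86191525-86191774 of GRCm38.p6 on the plus strand, 5′ to 3′. Its last bases lie inside the gene as GENCODE draws it, from 86191764 on. Capitals mark TGTGGT, the letters bound by RUNX proteins, and AGGTCA, a short site bound by retinoic acid receptors and other nuclear receptors.
Nr0b1: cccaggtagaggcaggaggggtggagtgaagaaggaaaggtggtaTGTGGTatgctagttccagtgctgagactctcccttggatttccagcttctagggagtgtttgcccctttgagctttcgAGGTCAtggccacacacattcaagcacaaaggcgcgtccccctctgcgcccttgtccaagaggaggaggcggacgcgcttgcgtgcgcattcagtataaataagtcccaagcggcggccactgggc
TGTGGT lay 205 to 200 bases and AGGTCA 126 to 121 bases before the start, both on the strand of the gene. Searched on both strands of the same window in 32851 RefSeq promoters, TGTGGT was found in 14.0% and AGGTCA in 14.0%. The SF-1 site CAAGGTCA, which contains AGGTCA, was found in 1.33%, the GATA sites AGATAA and TGATAA in 9.99% and 7.94%, and the forkhead site GTAAACA in 3.17%. Promoters of 5 of the 9 members were searched (Foxl2, Nr0b1, Nr2f2, Runx1 and Irx3), with 6 promoters in all. The 5 other than that of Nr0b1 held none of these letters. Promoters of the other members were not searched. A match is a description of the letters only.

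Libraries held 21064856 to 25920131 counts, and 3 counts, the limit that a count of 0 allows, corresponded to 0.116 to 0.142 CPM (a gene's count scaled to a fixed library total). This floor uses the plain library totals, while the CPM of genes use totals adjusted by a normalisation factor. Of the targeted genes, Rarg was at 15.2 to 19.3 CPM in Rar mutants, 20.4 to 22.1 CPM in Dmrt1 het Rar mutants and 24.1 to 32.4 CPM in controls, without overlap between any of the groups. Over all genes, 5.13% did not overlap between Rar mutants and controls, 28.5% between Dmrt1 het Rar mutants and controls, and 39.3% between the mutant groups. Rara and Rarb overlapped between Rar-deleted and control ovaries, and Dmrt1 was at most 0.220 CPM in any library. The labels do not say which exons the floxed alleles remove, so counts over whole genes do not measure the deletion. Summed granulosa markers (10 genes) reached 3385 to 5452 CPM in Rar mutants, 7189 to 7207 CPM in Dmrt1 het Rar mutants and 4489 to 8800 CPM in controls. Theca and stroma markers (10 genes) came to 1543 to 2587 CPM across the Rar-deleted ovaries, and to 1407 to 2270 CPM across the controls, and no marker of either list was at 0 in all libraries. The sample titles carry numbers in a low and a high range. The low range holds 4 libraries, namely the Dmrt1 het Rar mutants 1 and 2, Rar mutant 1 and control 1, and the high range holds the other 6. In a fit of 3 groups with the range as a term, 2414 of 20570 genes differed between the ranges (edgeR quasi-likelihood test, Benjamini-Hochberg adjusted p under 0.05; 11.7%). Both Dmrt1 het Rar mutants are in the low range, so this term rests on the controls and Rar mutants. Among these, only Rar mutant 1 and control 1 are in the low range. What the numbers mark is not stated in the labels. Nothing in the labels beyond these numbers says that replicates were separate animals, so p-values measure the spread between these samples.

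Per unit length, GATA4 and FOXL2 transcripts were the most abundant of the 9 in control ovaries and Irx5 transcripts the least. Levels are given as the authors' FPKM (reads scaled for gene length and library size), mean ± SD over 5 controls. Gata4 stood at 43.9 ± 11.5 FPKM and Foxl2 at 43.3 ± 6.43 FPKM, above 91.6% and 91.5% of the genes tested. Gata4 exceeded Foxl2 in 2 of 5 controls, so these neighbours did not differ beyond their spread. Gata6 followed at 26.4 ± 2.49 FPKM and Wt1 at 14.6 ± 2.01 FPKM, each below the gene before it in 5 of 5 controls with no overlap. Irx3 stood at 12.5 ± 1.22 FPKM, below Wt1 in 4 of 5 controls, and Nr2f2 at 9.95 ± 1.50 FPKM, below Irx3 in 5 of 5 although their ranges overlapped. The 3 least abundant members were Nr0b1 at 4.58 ± 1.00 FPKM, Runx1 at 2.90 ± 1.22 FPKM and Irx5 at 2.19 ± 1.02 FPKM. Nr0b1 lay below Nr2f2 in all 5 controls without overlap, while Nr0b1, Runx1 and Irx5 overlapped as neighbours. The length behind these FPKM values was 1241 bases for Foxl2, against 3256 bases of exon in GENCODE M21, and 3195 against 6508 bases for Gata6, so the place of these genes in the order depends on the gene model. For the other members the lengths differed by no more than 2 bases, except Runx1 with 11831 against 12025 bases.

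**Figure D1:**
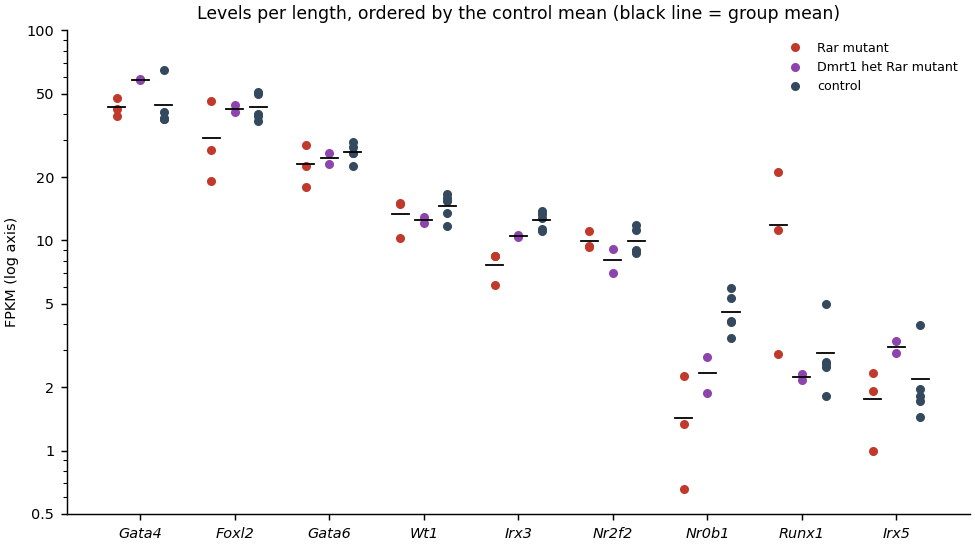
Level of each of the 9 genes in FPKM (log axis) in every library, with Rar mutants, Dmrt1 het Rar mutants and controls side by side and a line at each group mean. Gata4 and Foxl2 lie highest in controls and Irx5 lowest, and Runx1 in Rar mutants 2 and 3 stands far above its level in the other 8 libraries.

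Differences between groups were tested over all genes. In Rar-deleted ovaries against controls edgeR called 0 of the 9 members, and 21 of 18954 genes in all (0.111%). In Rar mutants it called 0 of 9 (0.00972% of 20570 genes), in Dmrt1 het Rar mutants against controls 0 of 9 (0.0194%), and in Dmrt1 het Rar mutants against Rar mutants 0 of 9 (0% of genes). At an unadjusted p under 0.05, the members numbered 3 of 9 in Rar-deleted ovaries (8.47% of all genes), 3 of 9 in Rar mutants (9.45%), 1 of 9 in Dmrt1 het Rar mutants (17.3%) and 2 of 9 between the mutant groups (16.9%). DESeq2 called Nr0b1 in Rar-deleted ovaries (1 of 9; 0.835% of genes), Nr0b1, Runx1 and Irx3 in Rar mutants (3 of 9; 1.84%), no member in Dmrt1 het Rar mutants (0 of 9; 1.92%) and Runx1 between the mutant groups (1 of 9; 3.66%). The comparisons with controls share the control samples. In whole ovaries, fewer cells of a type and less RNA per cell cannot be told apart. In each comparison the values of the members follow by role.

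**Figure D2:**
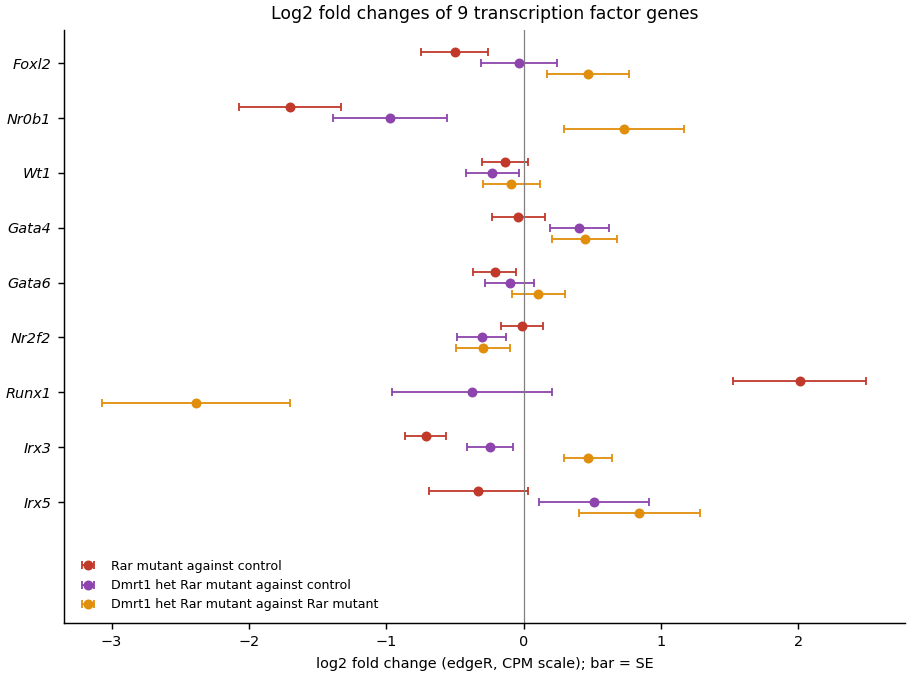
Log2 fold change of each gene, with its approximate SE as a bar, in Rar mutants against controls, Dmrt1 het Rar mutants against controls and Dmrt1 het Rar mutants against Rar mutants. Runx1 lies farthest to the right in Rar mutants (2.01) and Nr0b1 farthest to the left (-1.70), while Wt1, Gata6 and Nr2f2 lie near 0.

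Foxl2, the forkhead gene of granulosa identity, was lower in Rar mutants 2 and 3 than in any other ovary. It stood at 58.2, 33.7 and 23.5 CPM in Rar mutants 1, 2 and 3, at 50.7 and 55.2 CPM in Dmrt1 het Rar mutants, and at 46.1, 62.9, 49.2, 49.3 and 62.2 CPM in controls 1 to 5. Rar mutant 1 lay inside the control range, so the groups overlapped. The log2 fold change stood at -0.50 (SE 0.25, edgeR adjusted p = 0.571) in Rar mutants and -0.03 (SE 0.28, adjusted p = 0.963) in Dmrt1 het Rar mutants. Without Rar mutant 1 it was -0.91 with an edgeR adjusted p of 0.0469, in a fit that called 3 of 9 members (Foxl2, Runx1 and Irx3; 1.88% of all genes), and without Rar mutants 2 and 3 it was 0.09. The second of these was chosen after seeing the data, and its lone Rar mutant is assumed to vary like the other groups. Over all alternatives tried, the adjusted p ran from 0.0469 to 0.906. Foxl2os, a transcript on the opposite strand that shares 12 exon bases with Foxl2, stood at 125.8, 70.6 and 48.6 CPM in Rar mutants, 150.4 and 145.4 CPM in Dmrt1 het Rar mutants and 80.8 to 115.4 CPM in controls. Rar mutants 2 and 3 were again the lowest 2 libraries. The kit keeps strand, and the strand setting of the counting is not given in the sources used here, so reads of such pairs may be shared.

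Runx1, a RUNT-domain factor of pre-granulosa cells and of follicles near ovulation, was higher in the same Rar mutants. It stood at 34.6, 134.3 and 247.8 CPM in Rar mutants 1, 2 and 3, at 27.4 and 25.9 CPM in Dmrt1 het Rar mutants, and at 31.3, 59.3, 21.3, 29.9 and 30.7 CPM in controls. Rar mutants 2 and 3 lay above every other ovary, and Rar mutant 1 lay inside the control range. The fold change was 4.03 in Rar mutants against controls (log2 2.01, SE 0.49, edgeR adjusted p = 0.157). DESeq2 gave an adjusted p of 0.00480, and over all alternatives the adjusted p ran from 0.00480 to 0.991. Without Rar mutant 1 the log2 fold change was 2.47 (edgeR adjusted p = 0.00546), and without Rar mutants 2 and 3 it was -0.02. The authors' deposited table of Rar mutants against controls lists Runx1 with a log2 fold change of 1.23 (SE 0.307) and an adjusted p of 0.00962. Runx1 was lower in both Dmrt1 het Rar mutants than in any Rar mutant, with no overlap, as for 39.3% of all genes. The log2 fold change between the mutant groups was -2.39 (SE 0.68, edgeR adjusted p = 0.206). DESeq2 gave an adjusted p of 0.00857 for this difference, in a range from 0.00857 to 0.941 over the alternatives. Without Rar mutant 1 it was -2.85 (edgeR adjusted p = 0.0256; 1 of 9 members and 1.64% of all genes called), and without Rar mutants 2 and 3 it was -0.35. With the range of title numbers as a term it was -1.48 (SE 0.74, edgeR adjusted p = 0.625). The low range holds both Dmrt1 het Rar mutants and 1 of 3 Rar mutants.

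Rar mutants 2 and 3 also stood apart in the balance of Foxl2 and Runx1 within a library. The ratio of Foxl2 to Runx1 in FPKM was 16.0, 2.40 and 0.904 in Rar mutants 1, 2 and 3, 17.6 and 20.3 in Dmrt1 het Rar mutants, and 10.1 to 22.0 in controls. With exon lengths from GENCODE in place of those behind the FPKM values, the ratio was 6.22, 0.928 and 0.350 in Rar mutants, 6.82 and 7.88 in Dmrt1 het Rar mutants and 3.92 to 8.52 in controls. Whether Runx1 exceeded Foxl2 in Rar mutant 2 as well as in Rar mutant 3 thus depended on the gene model. The summed level of ovulation and cumulus expansion genes was also high in these libraries. It (9 of 10 listed genes had a row, none at 0 in all libraries) was 49.4, 682.4 and 1580 CPM in Rar mutants 1, 2 and 3, 49.2 and 74.3 CPM in Dmrt1 het Rar mutants and 29.9 to 66.3 CPM in controls. Of the 9 genes, 7 in Rar mutant 2 (all but Pgr and Ptx3) and 8 in Rar mutant 3 (all but Edn2) exceeded every control, against 3 in Rar mutant 1 and 5 and 0 in Dmrt1 het Rar mutants 1 and 2. In Rar mutants edgeR called 0 of 9, and 9 of 9 had an unadjusted p under 0.05 (9.45% of all genes). Erythroid markers (5 genes, none at 0 in all libraries) summed to 478.9, 1998 and 2690 CPM in Rar mutants 1, 2 and 3, 370.6 and 594.9 CPM in Dmrt1 het Rar mutants, and 295.3, 359.1, 1611, 664.0 and 657.1 CPM in controls. In Rar mutants 5 of 5 had a positive fold change, 0 were called by edgeR and 3 had an unadjusted p under 0.05 (9.45% of all genes). The part of either list in the values of Runx1 and Foxl2 was not tested.

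**Figure D3:**
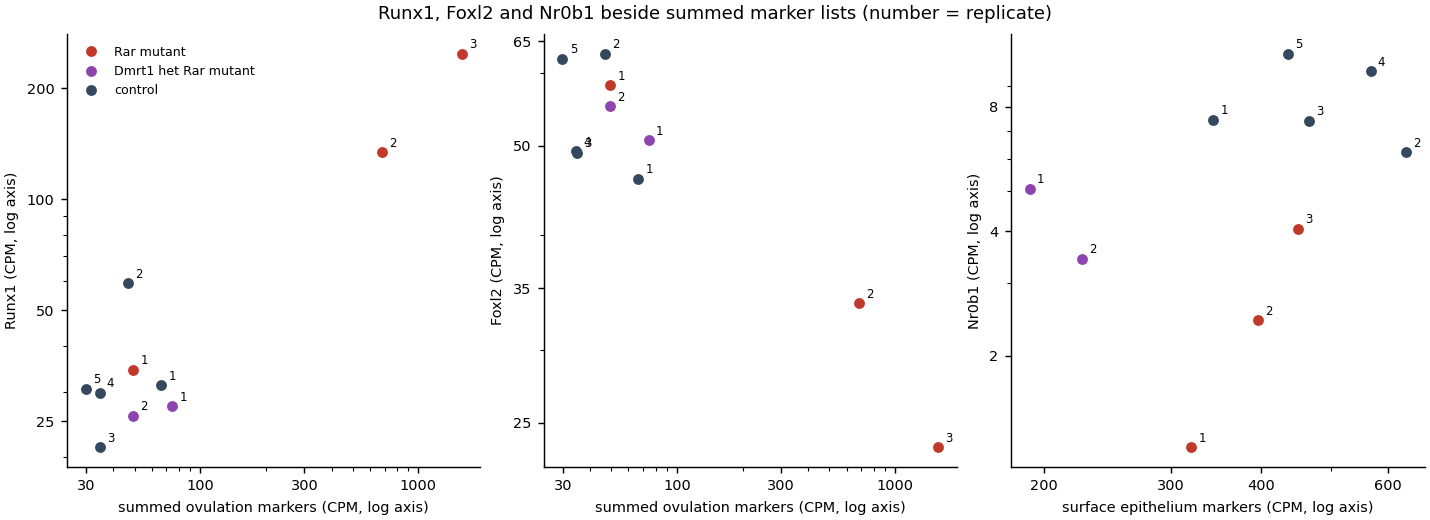
Runx1 and Foxl2 in CPM against the summed ovulation and cumulus expansion markers, and Nr0b1 in CPM against the summed surface epithelium markers, all on log axes, 1 point per library with its replicate number. Rar mutants 2 and 3 stand apart at 682.4 and 1580 CPM of ovulation markers, with the highest Runx1 and the lowest Foxl2.

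Nr0b1, the repressor of SF-1 activity, was lower in all 5 Rar-deleted ovaries than in any control. It stood at 1.20, 2.44 and 4.06 CPM in Rar mutants, at 5.08 and 3.43 CPM in Dmrt1 het Rar mutants, and at 7.44, 6.22, 7.40, 9.75 and 10.7 CPM in controls. These values rest on 30 to 121 counts in Rar-deleted ovaries and 156 to 268 counts in controls. Neither mutant group overlapped the controls, although the mutant groups overlapped each other. Over all genes, 1.71% did not overlap between Rar-deleted ovaries and controls, 5.13% between Rar mutants and controls, and 28.5% between Dmrt1 het Rar mutants and controls. In Rar-deleted ovaries Nr0b1 was 2.56-fold lower (log2 fold change -1.36, SE 0.33, edgeR adjusted p = 0.272). DESeq2 gave an adjusted p of 0.0108, in a range from 0.0108 to 0.999 over the alternatives. In Rar mutants it was 3.25-fold lower (log2 -1.70, SE 0.37, edgeR adjusted p = 0.123), with a DESeq2 adjusted p of 0.000697 and a range from 0.000697 to 0.470. In Dmrt1 het Rar mutants the log2 fold change stood at -0.97 (SE 0.42, edgeR adjusted p = 0.273), and with the title range as a term it was -0.45 (SE 0.43, adjusted p = 0.874). The authors' deposited table covers control and Rar mutant libraries only. It gives Nr0b1 a log2 fold change of -1.24 (SE 0.274) with an adjusted p of 0.0017 in Rar mutants. DESeq2 1.42.0 gave -1.69 (SE 0.361) in a fit of all 3 groups, and these fold changes may likewise not be on the same scale.

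The sign of the Nr0b1 difference held in every setting tried in the 3 comparisons with controls. With the high range of title numbers alone, which leaves 2 Rar mutants and 4 controls, it came to -1.39 (SE 0.33, edgeR adjusted p = 0.109), and 0 of 9 members were called (0.724% of genes). In the low range every Rar-deleted ovary, at 5.08 CPM or less, lay below the lone control there (7.44 CPM). A fit of these 4 libraries, chosen after seeing the data, gave -1.22 (SE 0.70, edgeR adjusted p = 0.999), with 0 of 9 members and 0% of genes called; the lone control is assumed to vary like the Rar-deleted ovaries. Without Rar mutants 2 and 3 the log2 fold change in Rar mutants was -2.80, against -1.70 with them. Nr5a1, whose protein NR0B1 represses and whose promoter drives the Cre, stood at 352.9, 267.6 and 278.7 CPM in Rar mutants, 401.4 and 361.1 CPM in Dmrt1 het Rar mutants and 198.6, 186.7, 311.7, 166.5 and 165.7 CPM in controls. Control 3 lay among the Rar-deleted ovaries, and Nr5a1 differed by 0.68 on the log2 scale (SE 0.21, edgeR adjusted p = 0.450). The ratio of Nr5a1 to Nr0b1 in FPKM did not overlap, at 29.3 to 125 in Rar-deleted ovaries and 6.58 to 17.9 in controls, but Nr0b1 alone already separated these groups. All Rar-deleted ovaries carried Sf1-Cre and no control did. What belongs to the transgene and what to the receptor deletion therefore cannot be told apart. Surface epithelium markers overlapped between Rar mutants and controls, and the Dmrt1 het Rar mutants lay below both. Their sum over 12 genes, none at 0 in all libraries, was 319.9, 396.4 and 450.7 CPM in Rar mutants, 191.1 and 225.6 CPM in Dmrt1 het Rar mutants and 343.3 to 635.6 CPM in controls. All 12 had a negative fold change in Rar-deleted ovaries, 0 were called by edgeR and 6 had an unadjusted p under 0.05 (8.47% of all genes). The same sum split fully by title number. It was 191.1 to 343.3 CPM in the low range and 396.4 to 635.6 CPM in the high range. Between the ranges 5 of 12 genes were called lower and 1 higher in the low range, and 11.7% of all genes were called. The part of the surface epithelium markers in the values of Nr0b1 was not tested.

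**Figure D4:**
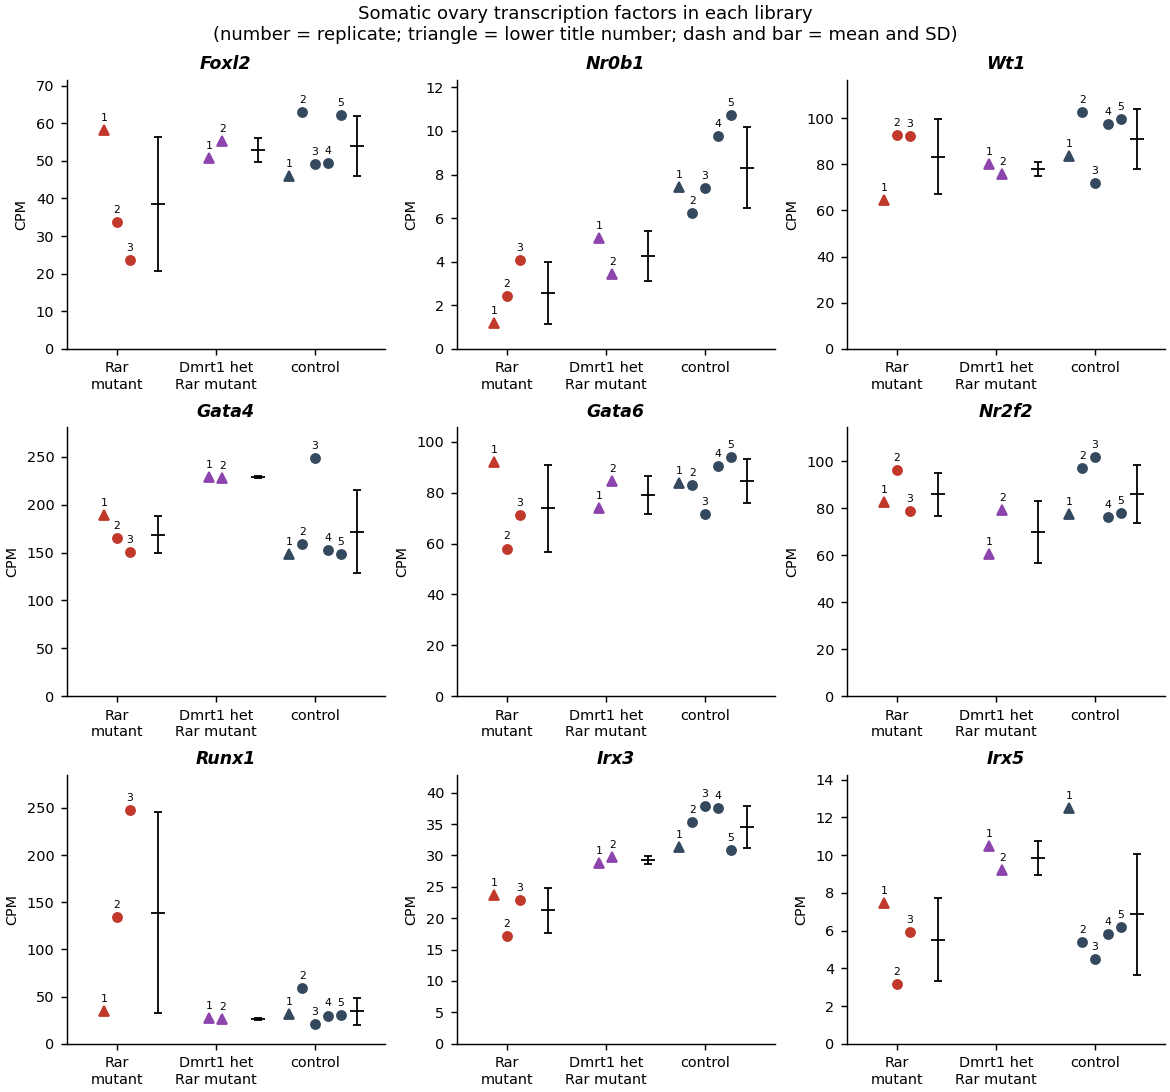
CPM of each gene in every library, in a panel of its own, with Rar mutants left, then Dmrt1 het Rar mutants, then controls; the dash and bar give mean and SD, and triangles mark the low range of title numbers. Nr0b1 and Irx3 in the 5 Rar-deleted ovaries lie below all 5 controls, and Runx1 is at 134.3 and 247.8 CPM in Rar mutants 2 and 3.

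Wt1, Gata6 and Nr2f2 overlapped their controls in both mutant groups. Wt1, a zinc finger gene of gonad formation, stood at 64.5, 92.8 and 92.3 CPM in Rar mutants, 80.2 and 75.9 CPM in Dmrt1 het Rar mutants and 71.9 to 102.8 CPM in controls. Gata6, a zinc finger partner of Gata4 in granulosa cells, stood at 92.2, 58.0 and 71.1 CPM in Rar mutants, 73.8 and 84.5 CPM in Dmrt1 het Rar mutants and 71.8 to 94.2 CPM in controls. Nr2f2, the orphan nuclear receptor of stroma and theca, stood at 82.8, 96.3 and 78.9 CPM in Rar mutants, 60.7 and 79.3 CPM in Dmrt1 het Rar mutants and 76.1 to 101.7 CPM in controls. The log2 fold changes in Rar mutants were -0.14 (SE 0.17) for Wt1, -0.21 (SE 0.16) for Gata6 and -0.01 (SE 0.16) for Nr2f2, with edgeR adjusted p from 0.757 to 0.989. For Dmrt1 het Rar mutants against controls they were -0.23 (SE 0.19) for Wt1, -0.10 (SE 0.18) for Gata6 and -0.31 (SE 0.18) for Nr2f2, with edgeR adjusted p from 0.375 to 0.778.

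Gata4 was highest in control 3 and in the Dmrt1 het Rar mutants. It stood at 189.6, 165.7 and 151.0 CPM in Rar mutants, 229.3 and 228.3 CPM in Dmrt1 het Rar mutants and 148.9, 159.3, 249.2, 152.4 and 149.0 CPM in controls. Both Dmrt1 het Rar mutants exceeded 4 of 5 controls and all Rar mutants, and 39.3% of all genes did not overlap between the mutant groups. The log2 fold change stood at 0.41 (SE 0.22, edgeR adjusted p = 0.336) against controls and 0.44 (SE 0.24, adjusted p = 0.354) against Rar mutants, and -0.04 (SE 0.19, adjusted p = 0.972) in Rar mutants against controls. The ratio of Gata4 to Gata6 in FPKM was 1.68, 2.34 and 1.74 in Rar mutants, 2.54 and 2.21 in Dmrt1 het Rar mutants and 1.29 to 2.84 in controls, where only control 3 was above 1.57.

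Irx3 and Irx5 are neighbours on chromosome 8 and encode related homeodomain proteins, but they differed in pattern. Irx3 stood at 23.7, 17.1 and 22.9 CPM in Rar mutants, 28.9 and 29.8 CPM in Dmrt1 het Rar mutants and 31.3, 35.3, 37.8, 37.6 and 30.9 CPM in controls. The 3 groups did not overlap. Irx3 was 1.64-fold lower in Rar mutants (log2 fold change -0.71, SE 0.15, edgeR adjusted p = 0.106), with a DESeq2 adjusted p of 0.00245 and a range from 0.00245 to 0.449 over the alternatives. Without Rar mutant 1 the edgeR adjusted p was 0.0474. In Dmrt1 het Rar mutants the log2 fold change stood at -0.24 (SE 0.17, edgeR adjusted p = 0.435), and between the mutant groups it was 0.47 (SE 0.18, edgeR adjusted p = 0.252). In the high range of title numbers alone the value in Rar mutants was -0.82 (edgeR adjusted p = 0.0878). Groups that did not overlap counted 2 of 9 members (Nr0b1 and Irx3) in Rar-deleted ovaries, where 1.71% of all genes did so, and the same 2 members in Rar mutants (5.13%) and in Dmrt1 het Rar mutants (28.5%). Between the mutant groups they counted 4 of 9 (Gata4, Runx1, Irx3 and Irx5), close to the 39.3% of all genes.

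Irx5 differed between the ranges of title numbers. It stood at 7.46, 3.15 and 5.93 CPM in Rar mutants, 10.5 and 9.20 CPM in Dmrt1 het Rar mutants and 12.5, 5.38, 4.47, 5.80 and 6.17 CPM in controls. The log2 fold change stood at -0.33 (SE 0.36, edgeR adjusted p = 0.859) in Rar mutants and 0.51 (SE 0.40, adjusted p = 0.495) in Dmrt1 het Rar mutants. The 4 libraries of the low range averaged 9.91 ± 2.12 CPM and the 6 of the high range 5.15 ± 1.15 CPM (SD), with no overlap, as for 22.4% of all genes. This was the only one of the 9 members called between the ranges (log2 difference 0.98, SE 0.24, edgeR adjusted p = 0.0309), where 11.7% of all genes were called. Both Dmrt1 het Rar mutants belong to the low range, so this test rests on the controls and Rar mutants. Of these, only Rar mutant 1 and control 1 are in the low range. The ratio of Irx3 to Irx5 in FPKM was 3.60, 6.17 and 4.37 in Rar mutants, 3.12 and 3.66 in Dmrt1 het Rar mutants and 2.84, 7.41, 9.59, 7.34 and 5.67 in controls.

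The members differed in how far they varied over the 10 libraries. Runx1 varied most, with an SD of 1.16 in log2 CPM, above that of 97.6% of genes tested, followed by Nr0b1 (0.95, 95.5%) and Irx5 (0.59, 80.9%). Gata6, Nr2f2 and Wt1 varied least, with an SD of 0.22 each, above that of 18.4% to 19.7% of genes. For the 3 most variable members, the genes with the most similar profile were found as the smallest root mean square difference in centred log2 CPM over 10 libraries, which share depth and title range. Runx1 was nearest to Pcsk5 (0.212), a proprotein convertase gene, then Rnf128 (0.299) and Alpl (0.341). Pcsk5 stood at 71.0, 239.4 and 379.6 CPM in Rar mutants, 38.9 and 46.4 CPM in Dmrt1 het Rar mutants and 40.2 to 72.6 CPM in controls. Nr0b1 was nearest to Ly6g6e (0.411), Cdh1 (0.416), the E-cadherin gene and a surface epithelium marker in the list above, and Tmem30b (0.438). Cdh1 stood at 3.25, 5.59 and 5.80 CPM in Rar mutants, 8.01 and 6.60 CPM in Dmrt1 het Rar mutants and 10.4 to 21.7 CPM in controls. Irx5 was nearest to Fzd3 (0.158), Gm37397 (0.184) and N4bp2 (0.185). Among the members themselves the closest pair was Irx3 and Gata6 (0.279), then Wt1 and Nr2f2 (0.289), while the member nearest to Runx1, Wt1, was at 1.03.

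**Figure D5:**
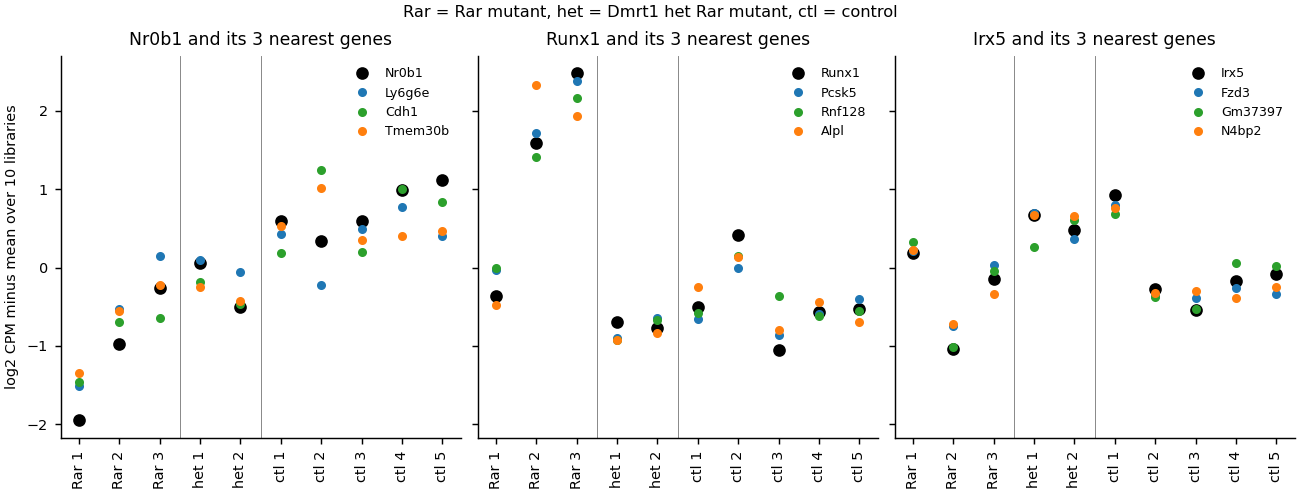
Log2 CPM, centred on each gene's mean over the 10 libraries, of Runx1, Nr0b1 and Irx5 with the 3 genes nearest to each. Black points are the member and coloured points its nearest genes; Runx1 and Pcsk5 are both highest in Rar mutants 2 and 3, and Irx5 and its nearest genes are high in the libraries of the low range of title numbers.

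Related genes and partners had no edgeR calls in the 4 comparisons of genotypes, where edgeR called at most 0.111% of all genes. An unadjusted p under 0.05 was found for 8.47% of all genes in Rar-deleted ovaries. DESeq2 calls were read by gene for the members only. Of 14 family paralogs of the members, 8 were tested in Rar-deleted ovaries, with 2 higher and 6 lower in sign, 0 called and 1 at an unadjusted p under 0.05. That was Gata1, at a log2 fold change of -0.90 (SE 0.33, edgeR adjusted p = 0.533). Of 22 partners and other gonadal transcription factors 21 were tested, with 13 higher and 8 lower in sign, 0 called and 4 at an unadjusted p under 0.05. Tcf21, a basic helix-loop-helix gene of stroma, had the smallest p (log2 fold change -0.50, SE 0.12, edgeR adjusted p = 0.258), followed by Nr5a1 and by Zfpm1 (-0.39, SE 0.13, adjusted p = 0.518), a cofactor of GATA proteins. Tcf21 and Zfpm1 did not overlap between Rar-deleted and control ovaries, as for 1.71% of all genes. Of 12 genes of Sertoli and testis fate 10 were tested, with 0 called and 1 at an unadjusted p under 0.05. That was again Gata1, which is also among the family paralogs. Sox9, which FOXL2 keeps silent in the adult ovary, stood at 2.73, 2.86 and 2.86 CPM in Rar mutants, 0.713 and 1.50 CPM in Dmrt1 het Rar mutants and 1.59 to 2.95 CPM in controls. The Dmrt1 het Rar mutants, at 17 and 34 counts, lay below every other ovary, the nearest being control 1 at 39 counts. Control 1 and both Dmrt1 het Rar mutants are in the low range of title numbers, as is Rar mutant 1 (2.73 CPM). The log2 fold change of Sox9 in Rar-deleted ovaries, -0.16 (SE 0.35), pools both mutant groups and does not measure that separation. Over all genes, 28.5% did not overlap between Dmrt1 het Rar mutants and controls, and 39.3% between the mutant groups.

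Granulosa genes bound or regulated by FOXL2, GATA4 or GATA6 were tested for all 16 listed. In the 4 comparisons of genotypes edgeR called 0 of them, and at most 0.111% of all genes. Between the ranges of title numbers 11.7% of all genes were called. Lhcgr was called higher in the low range (log2 difference 1.46, edgeR adjusted p = 0.0311) and Amh lower (-1.46, edgeR adjusted p = 0.0134). In Rar mutants 14 of 16 had a negative fold change, with a median of -0.42 against -0.02 over all genes and 5 of 16 at an unadjusted p under 0.05 (9.45% of all genes). The list of granulosa markers showed the same sign there, with 10 of 10 negative, a median of -0.56, 0 called and 2 of 10 at an unadjusted p under 0.05. All of these markers but Nap1l5, Gja1 and Slc18a2 are also among the 16 genes, so the lists largely hold the same genes. Esr2, the oestrogen receptor of granulosa cells, stood at 69.4, 88.6 and 86.6 CPM in Rar mutants, 230.0 and 175.8 CPM in Dmrt1 het Rar mutants and 95.0 to 145.9 CPM in controls. The 3 groups did not overlap, with a log2 fold change of -0.50 (SE 0.18, edgeR adjusted p = 0.393) in Rar mutants and 0.82 (SE 0.20, adjusted p = 0.243) in Dmrt1 het Rar mutants. Over all genes, 5.13% did not overlap between Rar mutants and controls, 28.5% between Dmrt1 het Rar mutants and controls, and 39.3% between the mutant groups. Fst, the gene of the activin-binding protein follistatin, averaged 159.9 ± 21.4 CPM in Rar mutants (SD, n = 3) and 240.8 ± 63.1 CPM in controls (n = 5), with a log2 fold change of -0.60 (SE 0.22, edgeR adjusted p = 0.392). Between the mutant groups 12 of 16 were positive, the median was 0.64 against -0.01 over all genes, and 8 of 16 had an unadjusted p under 0.05 (16.9% of all genes). Of the granulosa markers 9 of 10 were positive there, with a median of 0.98, 0 called and 6 of 10 at an unadjusted p under 0.05. In Dmrt1 het Rar mutants against controls the median was 0.03, and in Rar-deleted ovaries -0.14. Star, which carries cholesterol into mitochondria for steroid synthesis, stood at 636.3, 1036 and 6407 CPM in Rar mutants 1, 2 and 3. It was at 138.6 and 730.2 CPM in Dmrt1 het Rar mutants and 80.5 to 766.7 CPM in controls. Rar-deleted ovaries and controls thus overlapped. The log2 fold change of Star was 1.69 (SE 0.87, edgeR adjusted p = 0.630) for the Rar-deleted ovaries.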

How the data were processed

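The submitters' processing notes name the build GRCm38 (mm10) and the tools STAR 2.4.2a, Trimmomatic 0.32, DESeq2 1.12.3 and SAMtools 1.0; the counter and its annotation are not given in the sources used here. The authors deposited raw counts per gene and FPKM values, which are scaled by size factors. Their table lists 185 genes, with these columns per the file headers: p-value, Wald score, log2 fold change and its error, and a mean count that serves as the signal; the deposited adjusted p-values reach 0.0492; 2 of the 9 members are listed. Counts were tested in R 4.3.3 with edgeR 4.0.16 (quasi-likelihood, TMM, filterByExpr, robust, two-sided, Benjamini-Hochberg over all genes tested, threshold 0.05), in a 2-group fit for Rar-deleted ovaries and a 3-group fit otherwise. The SE of an edgeR fold change is approximate, the fold change over the square root of F. DESeq2 1.42.0, RLE size factors, no filter, a term for the title-number range, a replicate block, the 2 groups alone, the high range alone and leaving out each library were alternatives; the low range alone and leaving out Rar mutants 2 and 3 were added after seeing the data. CPM are counts over the library total multiplied by its TMM factor. The CPM given for 3 counts is over the library total alone. Centred log2 CPM used a prior count of 2. Total counts were 21064856 to 25920131, and intervals and floors cover counting error only. No libraries of 1 group were duplicates (chi-square per degree of freedom from 12.75 up). All 9 members are named; of the other lists, called genes or up to 3 with the smallest p, plus targets and partners picked by name. The tests were checked on simulated data. The members and lists were chosen with earlier results of these data known. Sequences are RefSeq promoters on GRCm38.p6.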

Additional observations from a re-analysis of the deposited data

Results flagged for a closer look

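Gata4 in control 3 stood far from the other controls. It was at 249.2 CPM there, against 148.9 to 159.3 CPM in the other 4 controls, and the gap to the nearest control took up 0.868 of the whole range, above the critical value of 0.71 for 5 samples (Dixon's test at 95%). Of 18 groups of values tested this was the only one to stand out, and chance alone marks about 1 in 20.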

How the results depend on the processing

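Over 630 alternatives to the 36 fold changes of the 9 genes, 581 kept both direction and side of the threshold, 9 passed the threshold that edgeR had missed, and 40 changed sign, in 18 fold changes. The cause of these changes was not tested. The sign of Nr0b1, Irx3 and, between the mutant groups, Runx1 was the same in all alternatives run. In Rar-deleted ovaries, leaving out Rar mutants 2 and 3, which was chosen after seeing the data, gave 0.016 for Foxl2 and -0.24 for Runx1, and the low range of title numbers alone, likewise chosen, gave 0.23 for Foxl2, -0.12 for Runx1 and -0.48 for Irx5. There Gata4 was -0.17 in the high range of title numbers, and Irx5 was -0.34 with the title-number term, -0.017 with the replicate block, -0.26 in the high range and -0.10 to 0.41 when 1 library was left out. In Rar mutants without libraries 2 and 3 the values were 0.088 for Foxl2, 0.12 for Gata4, 0.10 for Gata6, -0.019 for Runx1 and 0.096 for Irx5. Leaving out 1 library there gave -0.23 to 0.025 for Wt1, -0.12 to 0.14 for Gata4, -0.11 to 0.055 for Nr2f2 and -0.60 to 0.0039 for Irx5, and the title-number term gave 0.010 for Nr2f2. In Dmrt1 het Rar mutants against controls the title-number term gave 0.032 for Wt1, 0.41 for Runx1 and -0.18 for Irx5, and leaving out 1 library gave -0.082 to 0.035 for Foxl2. Between the mutant groups, Foxl2 was -0.12, Wt1 0.30 and Gata6 -0.20 without Rar mutants 2 and 3, Wt1 0.14 and Gata6 -0.027 with the title-number term, and -0.25 to 0.015 and -0.035 to 0.29 when 1 library was left out.

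Counts of members called by edgeR were 0 in each comparison of genotypes. DESeq2 called 1 in Rar-deleted ovaries, 3 in Rar mutants and 1 between the mutant groups. Leaving out 1 library gave 0 to 3 in Rar mutants and 0 to 1 between the mutant groups. Counts over all genes moved more. In Rar-deleted ovaries 21 genes became 182 with DESeq2, 40 with the title-number term, 0 with the replicate block, 142 in the high range, 0 in the low range, 7 without Rar mutants 2 and 3, and 5 to 52 when 1 library was left out. In Rar mutants 2 genes became 376 with DESeq2, 85 with the title-number term, 142 in the high range, 1 in a fit of the 2 groups alone, 1 without Rar mutants 2 and 3, and 1 to 384 when 1 library was left out. In Dmrt1 het Rar mutants against controls 4 genes became 337 with DESeq2, 1 with the title-number term, 0 with the replicate block and 0 to 364 when 1 library was left out. Between the mutant groups 0 genes became 626 with DESeq2 and 0 to 335 when 1 library was left out. Single libraries that moved a count over all genes by more than 1.5 times were, in Rar-deleted ovaries, Dmrt1 het Rar mutants 1 and 2, Rar mutant 2 and controls 1 (52 genes without it) to 5. In Rar mutants they were Rar mutants 1 (384 without it) and 3 and controls 2, 3 and 5. In Dmrt1 het Rar mutants against controls they were both Dmrt1 het Rar mutants, Rar mutant 3 and controls 1 (364 without it), 2, 3 and 5, and between the mutant groups Rar mutant 1 (335 without it) and control 1.

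The labels do not say whether the replicate numbers pair the samples, and correlations between libraries cannot settle it. Deviations from the group means of same-numbered libraries correlated at 0.44, 0.01 and 0.25 for Rar mutants and controls, 0.08 and 0.09 for Dmrt1 het Rar mutants and controls, and -0.10 and -0.04 between the mutant groups. The pair at 0.44, Rar mutant 1 and control 1, also shares the low range of title numbers. With the number as a replicate block, 0 members were called in any comparison of genotypes. Low counts limit Nr0b1 most, at 30 to 268 counts per library.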
